A study of Mus musculus with 12 samples.

Results

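The CC chemokines that draw monocytes and eosinophils into tissue were examined in mouse colon, together with 2 of their receptors. The genes were Ccl2, Ccl3, Ccl4, Ccl7, Ccl8, Ccl11, Ccl12 and Ccl24 and the receptor genes Ccr1 and Ccr2, found by symbol in the deposited gene table, which made 10 of 54532 genes. RNA of the colon was sequenced in 12 libraries, 3 in each of 4 groups, from mice that were 6 to 8 weeks old and had all received 5 tamoxifen injections. Tmem173fl/fl mice, labelled WT in the deposit, carried a floxed Tmem173, the gene of STING, a sensor protein that relays the presence of cytosolic DNA, and no Cre. Tmem173iΔmye mice (Tmem173fl/fl Lyz2-Cre ert2, labelled CRE) carried in addition a Cre recombinase in the Lyz2 locus that tamoxifen switches on in myeloid cells, so that other colon cells kept the gene. In each genotype 1 group was untreated and 1 group was given dextran sulfate sodium (DSS) for 7 days, a polymer that damages the gut lining and brings on colitis. Replicates are numbered 1 to 3, except 1, 2 and 5 in colitic Tmem173iΔmye mice, and no source used here says that equal numbers are related.

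CC chemokines are small secreted proteins that bind G protein-coupled receptors on leukocytes and guide their migration along a gradient. CCL2, CCL7 and CCL12 act on monocytes, mainly through CCR2, which inflammatory monocytes need to leave the bone marrow and enter the inflamed gut, and CCL8 is a related chemokine whose main receptor in the mouse is a different one. CCL3 acts through CCR1 among other receptors, and CCL4 is its close relative, while CCL11 and CCL24 (eotaxins) draw eosinophils through CCR3.

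The genes fall into few genomic sites (GRCm38, positions as deposited). Ccl2, Ccl7, Ccl11, Ccl12 and Ccl8 lie in this order on the plus strand within 81.2 kb of chromosome 11, from chr11:82035571-82037453 for Ccl2 to chr11:82115185-82116799 for Ccl8. Ccl3 (chr11:83647844-83649355, minus strand) and Ccl4 (chr11:83662584-83664683, plus strand) form a pair 1531 kb further on. Ccl24 lies alone at chr5:135569937-135573049, and Ccr1 (chr9:123962124-123968692) and Ccr2 (chr9:124101950-124113557) are neighbours within 151.4 kb. All 10 are protein-coding, and no exon of any of them overlaps an exon of another gene in GENCODE. The longest exact stretch shared by transcripts of any pair was 23 bases, between Ccl2 and Ccl7.

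RefSeq start sites with a sequence window (GRCm38.p6) were found for 5 of the 10 genes, Ccl3, Ccl8, Ccl12, Ccr1 and Ccr2. No window was found for Ccl2, Ccl4, Ccl7, Ccl11 and Ccl24. The 150 bases before the start are printed for Ccl8 and Ccl12, neighbours whose levels did not pass the test under DSS, and for Ccl3 and Ccr1, which were higher under DSS in Tmem173fl/fl mice. They are written 5′ to 3′ on the strand of the gene, at chr11:82115035-82115184 (plus) for Ccl8, chr11:82101695-82101844 (plus) for Ccl12, chr11:83649379-83649528 (minus) for Ccl3 and chr9:123968693-123968842 (minus) for Ccr1. Capitals mark the letters TATAAA.
Ccl8: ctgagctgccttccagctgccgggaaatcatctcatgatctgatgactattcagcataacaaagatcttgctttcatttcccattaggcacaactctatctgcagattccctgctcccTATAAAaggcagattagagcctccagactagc
Ccl12: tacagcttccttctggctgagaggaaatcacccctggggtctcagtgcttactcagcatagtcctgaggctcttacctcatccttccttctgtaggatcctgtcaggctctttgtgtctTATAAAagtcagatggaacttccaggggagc
Ccl3: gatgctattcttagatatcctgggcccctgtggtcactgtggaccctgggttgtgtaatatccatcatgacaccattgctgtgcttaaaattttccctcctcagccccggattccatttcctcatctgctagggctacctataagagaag
Ccr1: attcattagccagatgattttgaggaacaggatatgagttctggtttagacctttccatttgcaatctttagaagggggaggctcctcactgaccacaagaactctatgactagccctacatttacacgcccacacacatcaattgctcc

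Windows of 300 bases, 250 before the start and 50 after it, were searched on both strands for short motifs, of which 6 are reported. TATAAA, the core of the TATA box, was found in Ccl8 from -32 to -27 and in Ccl12 from -31 to -26, with -1 the last base before the start, and in 13.6% of all 32851 windows. The letters searched for AP-1 (TGANTCA, in 7.81% of all windows) and C/EBP (TTGCNNAA, 10.8%) were absent from the 5 windows. The same held for the NF-kB (0.411%), STAT6 (6.95%) and ISRE (3.44%) motifs, of 10 letters each. This says only that these letters are not in these windows.

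Library totals ran from 13823237 to 18718915 counts, and 3 counts, taken as the floor of detection in a library, corresponded to 0.142 to 0.227 CPM (counts scaled by library size, with the TMM method). Replicate 5 of the colitic Tmem173iΔmye group stood apart, at -68.4 on the second principal component of log2 expression (9.47% of the variance) against -14.9 to 18.9 for the other 11 libraries, so values without it are given beside many of the results. On the first component (58.7% of the variance) this library was at -20.7, between the untreated libraries (-55.4 to -39.1) and the other colitic ones (8.89 to 93.4). Reads of Xist marked 3 libraries (untreated Tmem173fl/fl 3, untreated Tmem173iΔmye 3 and colitic Tmem173iΔmye 5), with 20384 or more counts against 8 or fewer in the others. No colitic Tmem173fl/fl library was among them, so between colitic genotypes Xist reads and the other traits of replicate 5 cannot be told apart. The summed level of 7 pancreas genes ran from 102.8 to 10058 CPM, with overlap between all groups. The targeted gene Tmem173 was at 24.5, 14.4 and 22.9 CPM in untreated Tmem173fl/fl, 17.2, 14.6 and 21.3 CPM in untreated Tmem173iΔmye, 42.4, 44.0 and 37.7 CPM in colitic Tmem173fl/fl and 47.8, 23.8 and 31.1 CPM in colitic Tmem173iΔmye libraries. It was not called between genotypes, with a log2 fold change of -0.28 (SE 0.26, edgeR adjusted p = 0.602) under DSS and of -0.21 without replicate 5, and counts per gene of whole tissue do not show the loss of floxed exons in myeloid cells.

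In the untreated colon of Tmem173fl/fl mice Ccl8 had the highest level per length of the 10 genes. Its FPKM (counts scaled by library size and gene length) was 40.5 ± 9.98 (SD, n = 3), and the lowest Ccl8 library lay above every library of the next gene. Ccl7 followed at 10.3 ± 8.69 FPKM. Ccl4 (4.55 FPKM), Ccl3 (3.59), Ccl12 (3.53), Ccl11 (3.48), Ccr2 (3.42) and Ccr1 (3.15) came next, and each of these overlapped its neighbour in the order. Ccl2 was lower, at 1.87 ± 0.913 FPKM, and below every Ccr1 library. Ccl24 was last, with 1, 0 and 3 counts, at or under the floor. In untreated Tmem173iΔmye mice Ccl8 (46.3 ± 13.5 FPKM) and Ccl7 (9.43 ± 3.37 FPKM) again led the order, and Ccl2 and Ccl24 were again the lowest.

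DSS in Tmem173fl/fl mice shows which of these genes rise in colitis when STING is intact. A gene was called where its edgeR adjusted p was under 0.05 and its level changed by 1 or more on the log2 scale. All 10 genes passed the filter on low values, and 4 of them were called higher and 0 lower, where 14.9% of the 24102 genes tested were called higher and 7.61% lower. The 4 were Ccl2, Ccl11, Ccl3 and Ccr1, and the same 4 were those whose colitic libraries all lay above all untreated ones, which held for 23.9% of genes. Over the 9 genes other than Ccl24 the median log2 fold change was 0.91, the value of Ccl7, against 0.03 over all genes tested. Leaving out single libraries moved this median to 1.78 without untreated replicate 1, 0.45 without untreated replicate 2 and 0.49 without colitic replicate 1. In bulk tissue, more cells of a type and more RNA per cell cannot be told apart.

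Ccl2, the main monocyte attractant, was at 3.11, 1.02 and 2.44 CPM in untreated Tmem173fl/fl libraries and at 57.1, 38.6 and 20.5 CPM in colitic ones. The groups did not overlap, and colitic replicate 1 was the highest of all 12 libraries. The means differed 17.7-fold, and the log2 fold change was 4.22 (SE 0.45, 95% interval 3.21 to 5.23, edgeR adjusted p = 7.88e-05). Ccl7 and Ccl12, the other CCR2 ligands, and their neighbour Ccl8 did not pass the test. Ccl7 was at 2.17 to 16.3 CPM untreated and 10.8 to 22.9 CPM colitic (log2 fold change 0.91, SE 0.57, edgeR adjusted p = 0.248), and the ranges overlapped through untreated replicate 1, without which the change was 1.78 and called. Ccl8 was at 16.4 to 26.6 CPM untreated and 21.9 to 34.8 CPM colitic (0.39, SE 0.24, edgeR adjusted p = 0.246). Ccl12, a mouse ligand of CCR2, was at 1.94 ± 0.406 and 1.93 ± 0.332 CPM (0.06, 95% interval -0.69 to 0.81, edgeR adjusted p = 0.912). Thus of 5 neighbouring chemokine genes on chromosome 11, Ccl2 and Ccl11 were called higher and Ccl7, Ccl8 and Ccl12 were not.

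Ccl11, the eotaxin, was at 3.33, 3.25 and 5.01 CPM in untreated and 36.9, 45.3 and 58.2 CPM in colitic Tmem173fl/fl libraries. Every colitic library was above every untreated one, with a 12.1-fold difference of means and a log2 fold change of 3.66 (SE 0.25, edgeR adjusted p = 5.06e-06). The order of the colitic replicates was the reverse of that for Ccl2. The other eotaxin gene, Ccl24, had 1, 0 and 3 counts untreated and 3, 3 and 5 counts colitic, so no fold is given.

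Ccl3, a macrophage product that binds CCR1, was at 6.14, 1.22 and 1.13 CPM untreated and 7.91, 8.90 and 7.01 CPM colitic. The groups did not overlap, though untreated replicate 1 was close to the colitic libraries, and the log2 fold change of 1.58 (SE 0.56) had an edgeR adjusted p of 0.0497, just under the threshold. This call was held in 5 of 16 alternative settings. Its neighbour Ccl4, an attractant of monocytes and T cells, was at 2.51 to 4.17 CPM untreated and 2.005 to 3.88 CPM colitic (-0.02, 95% interval -0.81 to 0.77, edgeR adjusted p = 0.968).

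Among the receptors, Ccr1 was at 8.79, 7.85 and 10.8 CPM untreated and 37.9, 36.1 and 37.4 CPM colitic in Tmem173fl/fl mice. The colitic libraries lay within a narrow band about 4.06-fold above the untreated mean (log2 fold change 2.09, SE 0.17, edgeR adjusted p = 1.67e-05). Ccr2 was at 23.0, 20.2 and 27.9 CPM untreated and 26.9, 27.03 and 17.8 CPM colitic. These groups overlapped, and the log2 fold change was 0.08 (95% interval -0.38 to 0.54, edgeR adjusted p = 0.792).

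**Figure D1:**
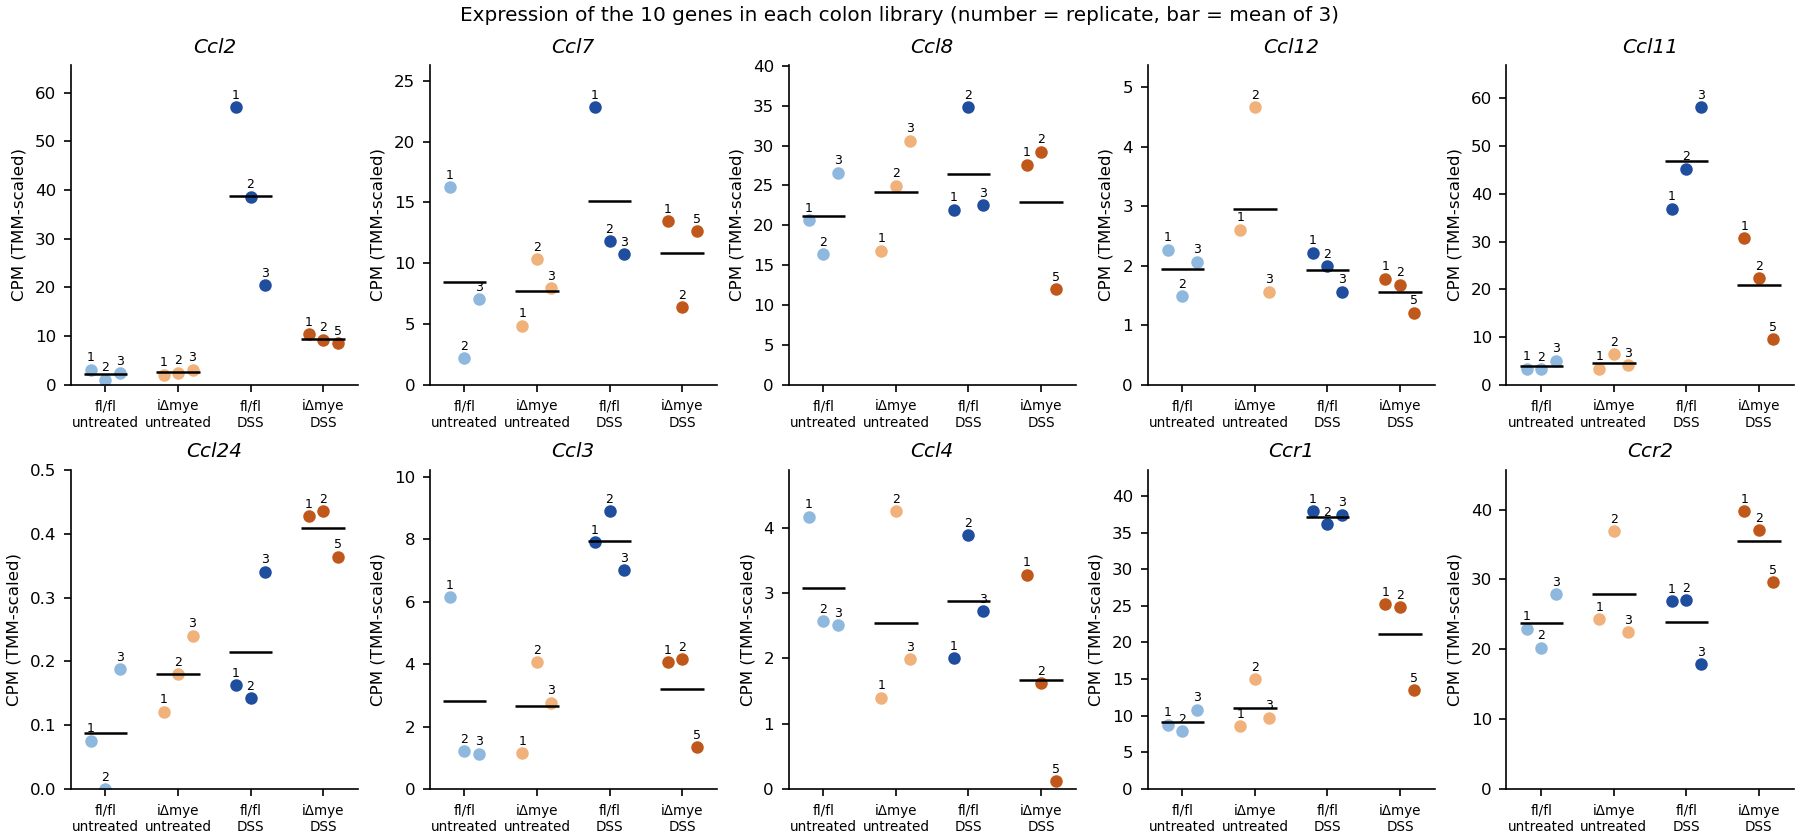
CPM of each of the 10 genes in the 12 libraries, with 1 panel per gene, points for libraries (labelled by replicate number), bars for the mean of 3 and linear axes from 0. Colitic Tmem173fl/fl libraries lie above all others for Ccl2, Ccl11, Ccl3 and Ccr1, whereas Ccr2 is highest on average in colitic Tmem173iΔmye libraries and Ccl24 stays under 0.5 CPM.

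In Tmem173iΔmye mice DSS raised Ccl2 and Ccl11, 2 of the 10 genes, and no gene of the 10 was called lower, where 1.48% of genes tested were called higher and 0.597% lower. Ccl2 went from 2.06, 2.46 and 3.13 CPM to 10.3, 9.27 and 8.5 CPM, with no overlap, a 3.68-fold difference of means and a log2 fold change of 1.87 (SE 0.31, edgeR adjusted p = 0.0165). Ccl11 went from 3.34, 6.47 and 4.09 CPM to 30.7, 22.3 and 9.53 CPM, and the lowest colitic library, replicate 5, was still above the untreated ones (log2 fold change 2.17, SE 0.43, edgeR adjusted p = 0.0322). Without replicate 5 both stayed called, Ccl2 with 1.97 and Ccl11 with 2.55. Ccl24 also did not overlap, with 2, 3 and 4 against 6, 7 and 6 counts, which makes 3 of the 10 genes beside 12.1% of all genes.

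Ccr1 was at 8.62, 15.0 and 9.74 CPM untreated and 25.2, 24.8 and 13.5 CPM colitic in Tmem173iΔmye mice. Replicate 5 lay within the untreated range, and the log2 fold change was 0.93 (SE 0.32, edgeR adjusted p = 0.189). Without this library it was 1.2 and called. Ccr2 was at 24.3, 36.9 and 22.4 CPM against 39.8, 37.0 and 29.6 CPM, overlapping through untreated replicate 2 (0.34, SE 0.24, edgeR adjusted p = 0.553). The remaining ligands overlapped between groups. Ccl3 had a log2 fold change of 0.25, Ccl4 of -0.62, Ccl7 of 0.49, Ccl8 of -0.08 and Ccl12 of -0.92, with edgeR adjusted p from 0.386 to 0.946. Without replicate 5 they were 0.65, -0.03, 0.40, 0.26 and -0.74, and that of Ccr2 was 0.49, none of them called. The call of Ccl2 was lost without any 1 of the 3 untreated libraries (edgeR adjusted p 0.0870 to 0.138), while that of Ccl11 was lost in each of the 6 fits that left out a library except the one without colitic replicate 5.

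Between the untreated genotypes none of the 10 genes was called by edgeR, as of all genes tested (0%), none had an unadjusted p under 0.05, and DESeq2 called none of the 10. All 10 overlapped between the genotypes, where 7.35% of genes did not. The log2 fold changes of the 9 genes other than Ccl24 ran from -0.26 for Ccl4 to 0.61 for Ccl12. The interval of Ccl2 was -0.65 to 1.11 and that of Ccr2 was -0.21 to 0.69, so smaller differences were not detectable with these libraries.

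The comparison of the colitic genotypes asks which of these genes differ when myeloid cells lose STING before colitis. Ccl2 was called lower in Tmem173iΔmye mice and no gene of the 10 was called higher, where 1.99% of genes tested were called lower and 0.822% higher. The libraries of 4 genes lay wholly lower in Tmem173iΔmye mice (Ccl2, Ccl3, Ccl11 and Ccr1) beside 14.8% of all genes, and those of 2 genes wholly higher (Ccr2 and Ccl24) beside 12% of all genes. The median log2 fold change over the 9 genes other than Ccl24 was -0.80, against 0.02 over all genes tested. For a single gene, an exact two-sided permutation test of 3 against 3 libraries cannot go below 0.1, and it gave 0.1 for each of these 6.

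Ccl2 was at 57.1, 38.6 and 20.5 CPM in colitic Tmem173fl/fl and at 10.3, 9.27 and 8.5 CPM in colitic Tmem173iΔmye libraries. The means differed 4.14-fold, and the spread of the Tmem173fl/fl group (SD 18.3 CPM) was far wider than that of the Tmem173iΔmye group (SD 0.921 CPM). The log2 fold change was -2.06 (SE 0.35, 95% interval -2.86 to -1.25, edgeR adjusted p = 0.0266). Ccl7, Ccl8 and Ccl12 overlapped between the colitic genotypes, with log2 fold changes of -0.48 for Ccl7 (SE 0.39), -0.22 for Ccl8 (SE 0.35) and -0.32 for Ccl12 (SE 0.36), and edgeR adjusted p from 0.525 to 0.772. Without replicate 5 of Tmem173iΔmye these were -0.61, 0.0901 and -0.17, so that the direction of Ccl8 turned, and none was called.

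Ccl3 was at 7.91, 8.90 and 7.01 CPM against 4.06, 4.17 and 1.34 CPM, all lower in Tmem173iΔmye mice, but its log2 fold change of -1.33 (SE 0.42) did not pass the adjustment (edgeR adjusted p = 0.128). Ccl11 was at 36.9, 45.3 and 58.2 CPM against 30.7, 22.3 and 9.53 CPM, with -1.17 (SE 0.39, edgeR adjusted p = 0.140). Ccr1 was at 37.9, 36.1 and 37.4 CPM against 25.2, 24.8 and 13.5 CPM, with -0.82 (SE 0.25, edgeR adjusted p = 0.121). In these 3 genes replicate 5 of Tmem173iΔmye was the lowest colitic library, and without it the groups still did not overlap, with log2 fold changes of -0.96, -0.83 and -0.58 (edgeR adjusted p = 0.110, 0.141 and 0.115). DESeq2 called Ccl3 and Ccl11 in addition to Ccl2. Ccl4 was at 2.005, 3.88 and 2.72 CPM against 3.28, 1.62 and 0.121 CPM, the last of them 2 counts, and the groups overlapped (-0.80, SE 0.79, edgeR adjusted p = 0.617), with -0.24 when this last library was left out.

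Ccr2 went the other way. It was at 26.9, 27.03 and 17.8 CPM in colitic Tmem173fl/fl and 39.8, 37.0 and 29.6 CPM in colitic Tmem173iΔmye libraries, which did not overlap, but the log2 fold change of 0.56 (SE 0.23, 95% interval 0.04 to 1.08) did not pass the adjustment (edgeR adjusted p = 0.219). Without replicate 5 it was 0.67 (edgeR adjusted p = 0.168). Ccl24 had 3, 3 and 5 counts against 6, 7 and 6 counts, too few for a fold.

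**Figure D2:**
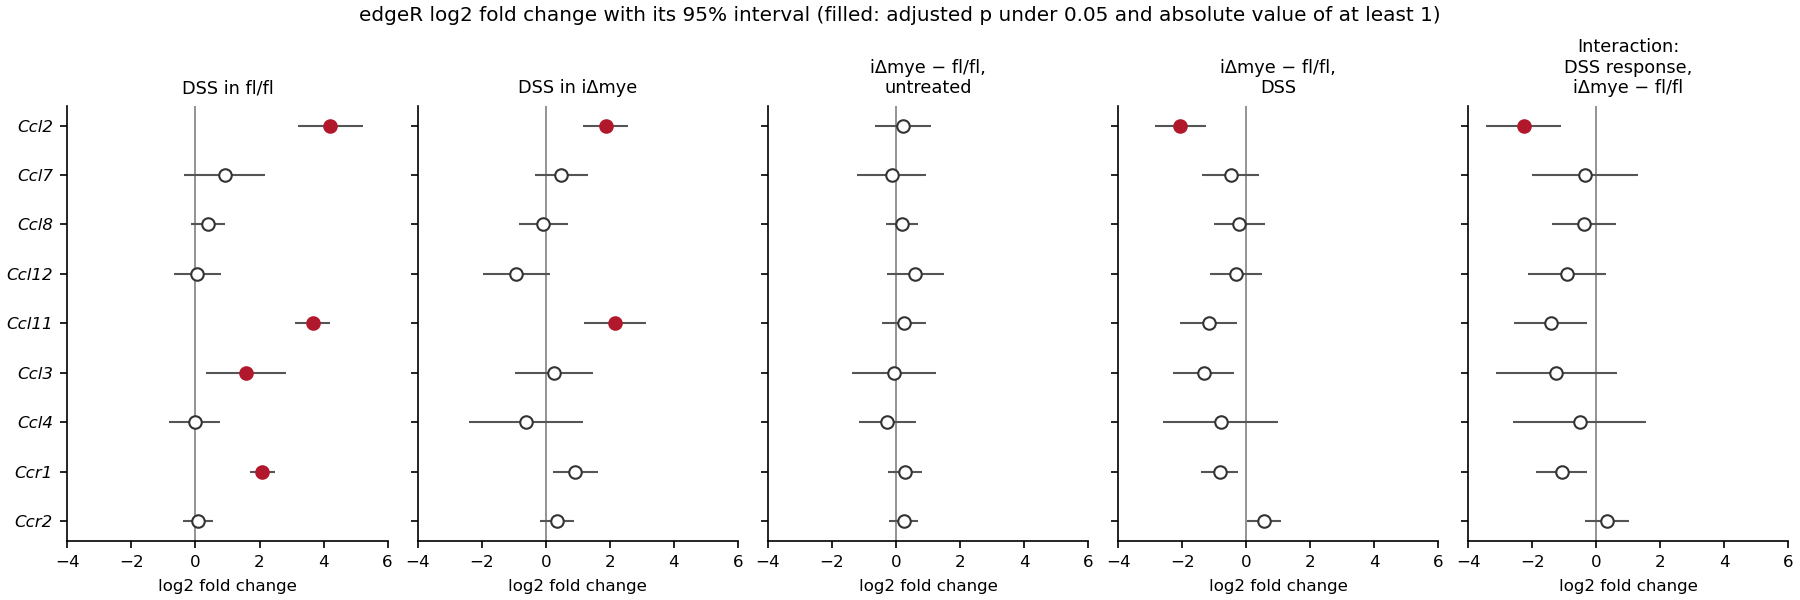
Log2 fold change (horizontal axis) with its 95% interval for the 9 genes other than Ccl24 in the 5 comparisons, with filled points for called genes. Ccl2 is filled in 4 of the 5 panels, at 4.22 and 1.87 for DSS, -2.06 between colitic genotypes and -2.27 for the interaction, and no gene is filled between untreated genotypes.

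The interaction tests whether the response to DSS differed between genotypes, and it shares all 12 libraries with the comparisons above. Ccl2 was called, with a response smaller by 2.27 on the log2 scale in Tmem173iΔmye mice (log2 difference -2.27, SE 0.55, 95% interval -3.46 to -1.09, edgeR adjusted p = 0.0443), where 1.61% of genes tested were called in this direction and 0.934% in the other. None of the other 9 genes was called. Ccl11 had -1.42 (SE 0.53, edgeR adjusted p = 0.174), Ccr1 -1.09 (SE 0.37, edgeR adjusted p = 0.139) and Ccl3 -1.25 (SE 0.88, edgeR adjusted p = 0.490). Ccr2 had 0.33, with an interval of -0.37 to 1.03. Without colitic Tmem173iΔmye replicate 5 these were -1.09, -0.87, -0.91 and 0.43, none of them called, and Ccl2 lost its call (-2.23, edgeR adjusted p = 0.0682).

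The size of the Ccl2 difference moved little when single libraries were left out, but its call did not hold throughout. Between colitic genotypes it ran from -2.35 to -1.65 and was called in 2 of 6 such fits. It lost the call without colitic Tmem173fl/fl replicate 1 (-1.65, edgeR adjusted p = 0.0963) or 2 (-2.05, edgeR adjusted p = 0.0650) and without colitic Tmem173iΔmye replicate 2 (-2.03, edgeR adjusted p = 0.0994) or 5 (-1.99, edgeR adjusted p = 0.0561). For the interaction it ran from -2.60 to -1.93 and was called in 2 of 12 such fits, those without colitic Tmem173fl/fl replicate 3 and without colitic Tmem173iΔmye replicate 1. The edgeR adjusted p was 0.0521 to 0.113 in the other 10 fits.

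**Figure D3:**
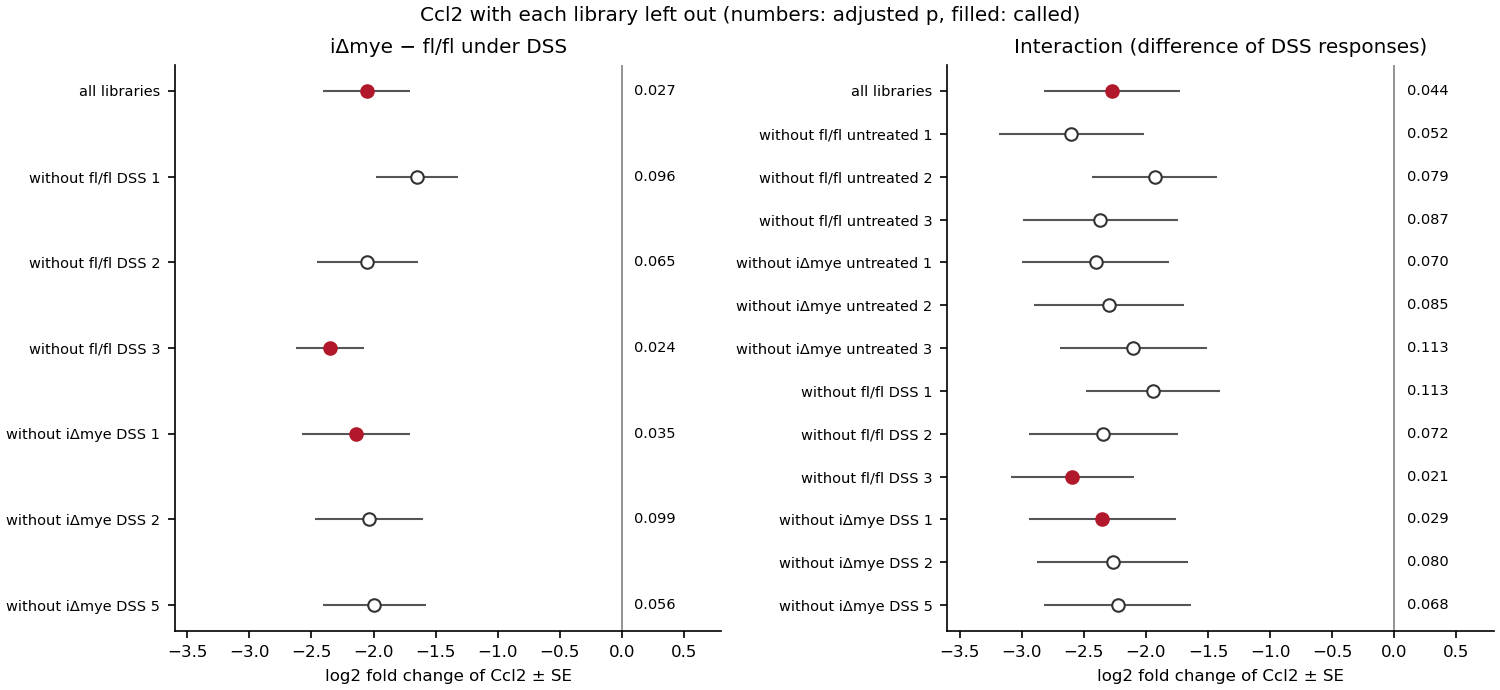
Log2 fold change of Ccl2 ± SE between colitic genotypes and for the interaction, with all libraries and with each one left out, the adjusted p at the right and filled points where called. Every value lies below -1.5, and 2 of 6 and 2 of 12 of the fits that leave out a library are filled.

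The levels per length (FPKM) give the share of each ligand in the sum of the 8. The summed FPKM of the 8 ligands was 67.9 ± 19.6 in untreated Tmem173fl/fl, 74.8 ± 20.5 in untreated Tmem173iΔmye, 168.2 ± 17.6 in colitic Tmem173fl/fl and 94.8 ± 32.7 in colitic Tmem173iΔmye mice (SD, n = 3 each). Colitic Tmem173fl/fl libraries (148.1 to 181.2) did not overlap any other group, whereas the colitic Tmem173iΔmye libraries (122.0, 103.9 and 58.5) overlapped the untreated ones through replicate 5. Exact two-sided permutation tests gave p = 0.1, the smallest possible, for DSS in Tmem173fl/fl and for the colitic genotypes, and p = 0.4 for DSS in Tmem173iΔmye.

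Ccl8 made up 61.2 ± 11.9% of the sum in untreated and 31.0 ± 6.58% in colitic Tmem173fl/fl mice, while its own level was not called. The share of Ccl2 went from 2.63 ± 0.667% to 20.05 ± 8.36% and that of Ccl11 from 5.35 ± 1.51% to 26.6 ± 9.09%. In Tmem173iΔmye mice the share of Ccl2 went from 3.01 ± 0.560% to 9.21 ± 2.82%, that of Ccl11 from 5.63 ± 1.13% to 19.2 ± 4.28% and that of Ccl8 from 62.1 ± 7.83% to 45.8 ± 7.76%. Between colitic genotypes the share of Ccl8 was higher by 14.9 percentage points in Tmem173iΔmye mice with no overlap (exact permutation p = 0.1), and that of Ccl2 was lower by 10.8 points with overlap through replicate 5 (12.5% against 12.4% in Tmem173fl/fl replicate 3, exact permutation p = 0.2). Over the 24 shares tested, the smallest adjusted p was 0.2, so none passed the threshold, which 3 libraries against 3 cannot reach.

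By level, the order in colitic Tmem173fl/fl mice was Ccl8 (52.3 ± 14.2 FPKM), Ccl11 (43.7 ± 10.2), Ccl2 (34.4 ± 16.2) and Ccl7 (19.1 ± 8.45), with each overlapping the next, followed by Ccr1 (13.3 ± 0.373) and Ccl3 (10.5 ± 1.2), which did not overlap their neighbours. In colitic Tmem173iΔmye mice Ccl8 (44.4 ± 18.7 FPKM), Ccl11 (19.1 ± 9.93) and Ccl7 (13.4 ± 4.78) stood above Ccl2 (8.13 ± 0.892), and every gene overlapped its neighbour in the order, down to Ccl24.

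**Figure D4:**
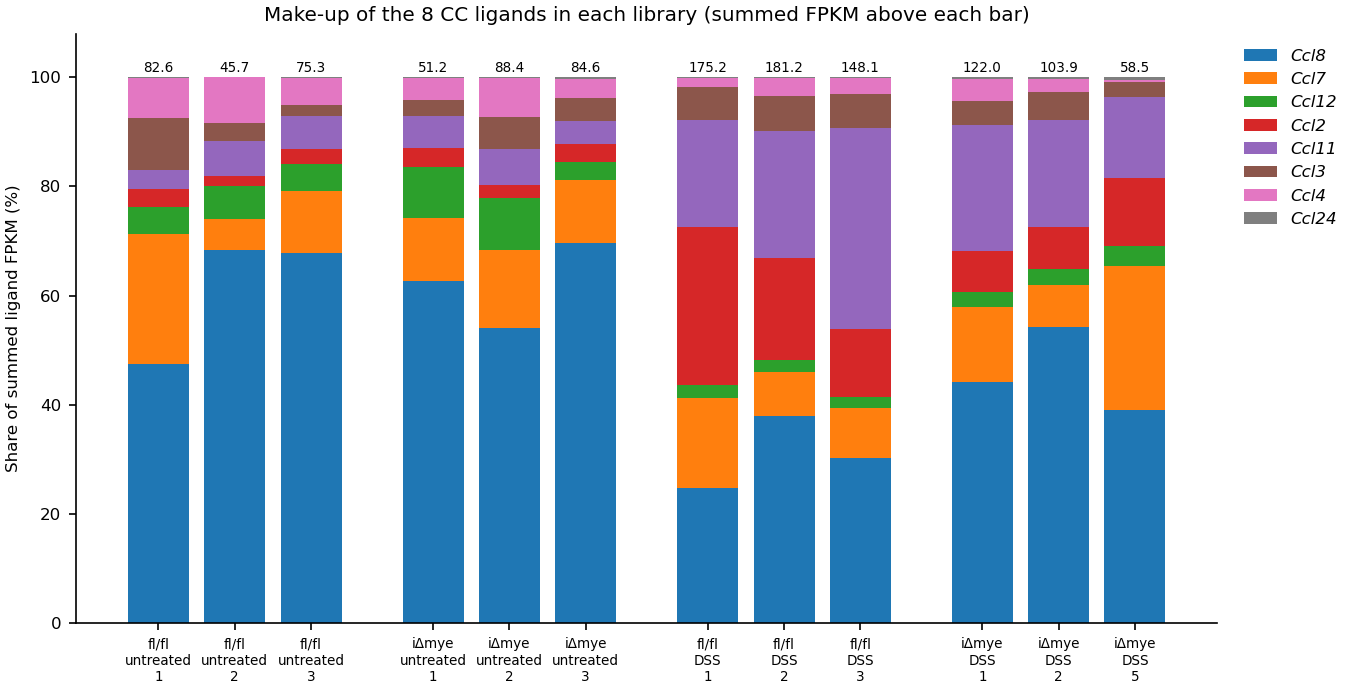
Share of each of the 8 ligands in their summed FPKM (percent) in the 12 libraries, with the summed FPKM above each bar. Ccl8 holds 47.4% to 69.6% of the sum in untreated libraries, and the mean shares of Ccl2 and Ccl11 are larger in the colitic groups, while none of the shares passed the test.

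The level of Ccr1 relative to Ccr2 was then read within each library, a ratio chosen after the values were seen and given with no test. In FPKM it was 0.914, 0.926 and 0.926 in untreated Tmem173fl/fl and 0.847, 0.968 and 1.04 in untreated Tmem173iΔmye libraries, so the receptors stood near equal. It was 3.36, 3.19 and 5.01 in colitic Tmem173fl/fl and 1.51, 1.60 and 1.09 in colitic Tmem173iΔmye libraries. All colitic libraries lay above all untreated ones, and the colitic genotypes did not overlap.

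Of 23 further genes of the CC chemokine system, 21 could be tested. In Tmem173fl/fl mice 8 of the 21 were called higher under DSS and 2 lower, beside 14.9% and 7.61% of all genes. In Tmem173iΔmye mice 1 of the 21 was called higher, beside 1.48% of all genes, and none lower. Without replicate 5 these were 3 of the 21 and 3.95% of all genes. Ccl22, a dendritic cell product that binds CCR4, was the gene called in both with all libraries (log2 fold changes 3.12 and 2.89, edgeR adjusted p = 0.00209 and 0.0319), with 3.35 in Tmem173iΔmye mice without replicate 5. Ccr3, the eotaxin receptor, had 2, 3 and 2 counts in untreated and 38, 30 and 24 counts in colitic Tmem173fl/fl libraries (edgeR adjusted p = 0.000461), and 2, 24 and 2 against 22, 21 and 2 counts in Tmem173iΔmye libraries (edgeR adjusted p = 0.756). It thus lay at the floor in colitic Tmem173iΔmye replicate 5, where Ccl11 was also the lowest of the colitic libraries.

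Between colitic genotypes 1 of the 21 genes was called higher and 1 lower, beside 0.822% and 1.99% of all genes. Ccl9, a CCR1 ligand, averaged 87.6 ± 2.23 CPM in Tmem173fl/fl mice but 42.3 ± 13.3 CPM in Tmem173iΔmye mice (log2 fold change -1.06, SE 0.22, edgeR adjusted p = 0.0427), and without replicate 5 it was no longer called (-0.99, edgeR adjusted p = 0.0811). Ccl28, a mucosal chemokine made by epithelium, averaged 36.1 and 169.3 CPM (2.22, SE 0.41, edgeR adjusted p = 0.0311), and it was also the only one of the 21 called for the interaction (2.64, SE 0.48, edgeR adjusted p = 0.0126). Without replicate 5 Ccl28 stayed called in both, with 1.65 and 2.07.

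Markers of the cells that make or follow these chemokines were counted in the same way, and their part in the results was not tested. The counts stand beside 14.9% of all genes called higher and 7.61% lower under DSS in Tmem173fl/fl mice, 1.48% higher in Tmem173iΔmye mice, 1.99% lower between colitic genotypes and 1.61% lower for the interaction. Without replicate 5, calls over all genes were 3.95% higher under DSS in Tmem173iΔmye mice, 1.39% lower between colitic genotypes and 1.39% lower for the interaction, so the rise in calls under DSS was not limited to these lists. Among 16 monocyte and macrophage genes, 10 were called higher and 1 lower under DSS in Tmem173fl/fl mice and 3 higher in Tmem173iΔmye mice, or 7 without replicate 5. Between colitic genotypes 3 were called lower (Mrc1 -1.74, Cd163 -2.002 and Itgam -1.03) and 1 higher (Plac8 1.27), and the same 4 genes were called for the interaction (-2.08, -2.69, -1.31 and 1.34). Without replicate 5 Itgam was called in neither (-0.88 and -1.17), while Mrc1 (-1.55 and -1.90), Cd163 (-1.61 and -2.31) and Plac8 (1.25 and 1.30) were called in both. Chil3, with -0.94 between colitic genotypes, was then called as well (-1.08), so that 3 genes were again lower. The summed level of the list ran from 1484 to 1743 CPM in colitic Tmem173fl/fl and from 1193 to 1558 CPM in colitic Tmem173iΔmye libraries, which overlapped. Plac8 carried much of this sum and went the other way, at 233.0 to 299.3 against 626.0 to 667.7 CPM. It was at 609.4 to 874.2 CPM in untreated Tmem173fl/fl and 617.7 to 750.1 CPM in untreated Tmem173iΔmye libraries. Plac8 was thus lower in colitic Tmem173fl/fl libraries and not raised in colitic Tmem173iΔmye ones. Which cells its RNA came from was not tested. Without Plac8, a choice made after its values were seen, the sums were 1185 to 1510 CPM in colitic Tmem173fl/fl, 525.0 to 932.2 CPM in colitic Tmem173iΔmye and 348.5 to 487.8 CPM in untreated libraries, and the colitic genotypes did not overlap. Ly6c2, which marks inflammatory monocytes, was at 21.6, 24.8 and 9.87 CPM against 32.0, 11.01 and 4.73 CPM and was not called (edgeR adjusted p = 0.868), nor were Csf1r (-0.54, edgeR adjusted p = 0.480) and Adgre1 (0.02, edgeR adjusted p = 0.973), markers of macrophages.

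Among the defining markers of eosinophils, Epx, the eosinophil peroxidase, had at most 3 counts in any library, at or under the floor, Siglecf was at 0.182 to 2.85 CPM and was not called in any comparison, and Prg2, a granule protein, was at 0.0677 to 0.682 CPM in untreated and 1.498 to 2.41 CPM in colitic Tmem173fl/fl libraries (edgeR adjusted p = 0.00723). Of 9 eosinophil genes 7 were tested, 3 were called higher in Tmem173fl/fl and 1 in Tmem173iΔmye mice under DSS, and none was called between colitic genotypes, counts that were the same without replicate 5. Il5ra, a subunit of the interleukin-5 receptor, was the gene called in both, at 0.313 to 1.02 CPM untreated and 5.73 to 15.5 CPM colitic in Tmem173fl/fl mice and at 0.240 to 0.599 against 2.25 to 29.4 CPM in Tmem173iΔmye mice (log2 fold changes 4.24 and 5.08, edgeR adjusted p = 0.000136 and 0.0202, the latter 5.62 without replicate 5). The summed level of the list was 15.4 to 28.3 CPM in colitic Tmem173fl/fl libraries and 40.1, 17.3 and 9.41 CPM in colitic Tmem173iΔmye replicates 1, 2 and 5. Il5ra alone made up 29.4 CPM of the sum in replicate 1. Of 5 cytokine genes that act on eosinophils 3 were tested, and Il33 was called higher under DSS in both genotypes (3.55 and 2.49, edgeR adjusted p = 5.13e-05 and 0.00341), with 2.56 in Tmem173iΔmye mice without replicate 5.

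Fibroblasts and endothelial cells are also known sources of Ccl2 and Ccl11. All 8 fibroblast genes were called higher under DSS in Tmem173fl/fl mice and 1 of 8 in Tmem173iΔmye mice (5 without replicate 5), and 7 of 8 (5 without it) were called lower between colitic genotypes, with Dcn (-1.78), Col3a1 (-1.73), Dpt (-1.13), Col1a2 (-1.36) and Col1a1 (-1.69) first by adjusted p. Without replicate 5 Dpt (-0.99) and Col1a1 (-1.59) were not called, while Dcn, Col3a1 and Col1a2 were. For the interaction 6 of 8 were called lower, or 5 without replicate 5. The summed level of the list was 8395 to 10553 CPM in colitic Tmem173fl/fl, 2437 to 3561 CPM in colitic Tmem173iΔmye and 1229 to 1574 CPM in untreated libraries. The neutrophil sum (423.5 to 705.6, 199.8 to 316.1 and 44.9 to 105.6 CPM) and the endothelial sum (414.2 to 567.6, 159.2 to 310.1 and 94.9 to 120.4 CPM) had the same order of groups without overlap, which is also that of Ccl2 and of Ccl11. The mast cell sum was 125.3 to 132.1 CPM in colitic Tmem173fl/fl, 49.4 to 115.1 CPM in colitic Tmem173iΔmye and 86.3 to 142.2 CPM in untreated libraries. The sums of dendritic cell genes and of T and NK cell genes overlapped between colitic genotypes. Of 6 endothelial genes all were called higher under DSS in Tmem173fl/fl mice and none in Tmem173iΔmye mice (4 without replicate 5), and 2 were called lower between colitic genotypes (Cdh5 -1.48 and Emcn -1.29), of which Cdh5 was called without replicate 5 (-1.27). The 8 neutrophil genes were called higher in 8 and 6 cases under DSS (8 and 8 without replicate 5), and 5 (6 without it) were called lower between colitic genotypes, from -2.23 for Cxcr2 to -3.47 for Mmp8, with S100a8 at -2.75, S100a9 at -2.97 and Trem1 at -2.68. For the interaction 2 endothelial genes were called lower (Cdh5 -1.70 and Vwf -1.56), 1 of 8 epithelial genes was called higher (Cdh1, 1.2) and no neutrophil gene was called, and these counts were the same without replicate 5. Under DSS in Tmem173fl/fl mice 3 of 6 mast cell genes and 2 of 6 dendritic cell genes were called higher. Called lower were 1 dendritic cell gene and 2 of 8 T and NK cell genes. None of these lists had a call in Tmem173iΔmye mice, between colitic genotypes or for the interaction. Without replicate 5, 1 dendritic cell gene was called higher in each of these, and 1 T and NK cell gene lower under DSS.

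Most epithelial genes were called lower in the comparison in which Ccl2, Ccl11, Ccl3 and Ccr1 were called higher. Under DSS in Tmem173fl/fl mice 5 of the 8 were called lower (Epcam -1.21, Vil1 -1.14, Krt8 -1.22, Krt20 -1.24 and Cdh1 -1.26) and 1 higher (Car1, 1.63), with a median log2 fold change of -1.17. In Tmem173iΔmye mice none was called with all libraries, and Car1 was called higher without replicate 5 (1.29), while none was called between colitic genotypes. The summed level was 18923 to 30666 CPM in untreated and 11143 to 17519 CPM in colitic Tmem173fl/fl libraries, with no overlap. It was 23265 to 26307 CPM in untreated and 14026 to 23504 CPM in colitic Tmem173iΔmye libraries, which overlapped each other, and the colitic genotypes overlapped as well.

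**Figure D5:**
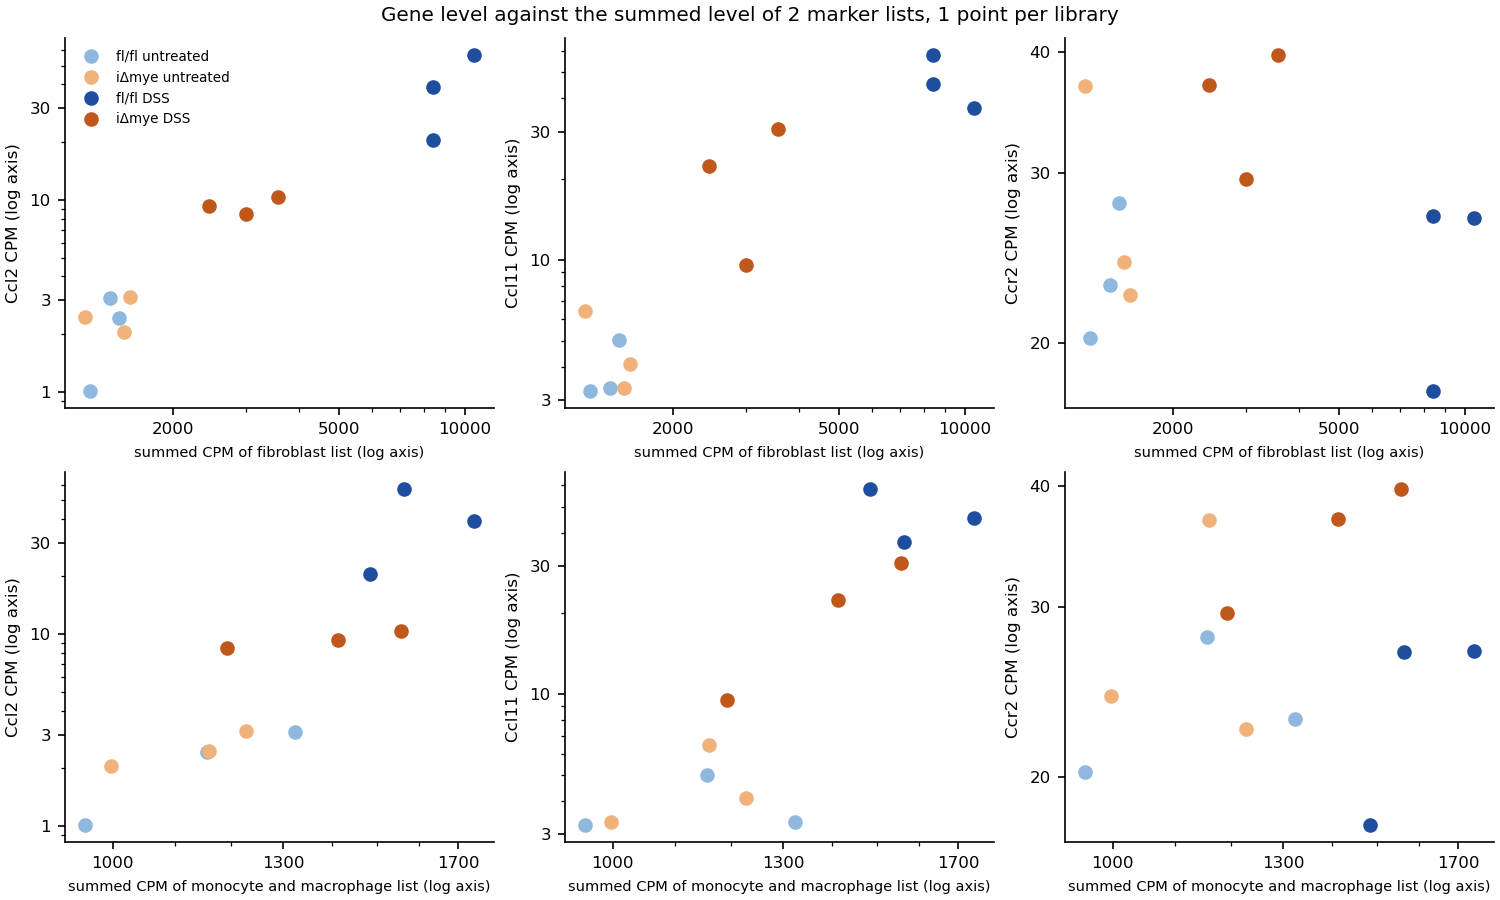
CPM of Ccl2, Ccl11 and Ccr2 against the summed CPM of 8 fibroblast genes (top) and 16 monocyte and macrophage genes, Plac8 included (bottom), 1 point per library, log axes. Ccl2 and Ccl11 follow the order of the groups in the fibroblast sum, from 1229 to 10553 CPM, while Ccr2 does not.

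Likeness between genes was read over all 12 libraries as Pearson's r of log2(CPM + 1), as a description with no test, since the points share libraries and a split by DSS. The genes most like Ccl2 were Ifitm1 (r = 0.988), Rab34 (0.985) and Rgs16 (0.985), with r of 0.794, 0.816 and 0.803 for deviations from the group means. Those most like Ccl11 were Cldn1 (0.992), Lilr4b (0.989) and Cers2 (0.987), with 0.945, 0.899 and 0.860 within groups. For Ccr2 they were Lair1 (0.906), Dppa3 (0.853) and Cd209d (0.847), and for Ccl24, which has 0 to 7 counts, Gm16897 (0.931), Gm11788 (0.890) and Fam124a (0.876).

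Among the 9 genes other than Ccl24, Ccl11 and Ccr1 were the pair most alike (r = 0.985), and this held within groups (r = 0.900 for deviations from the group means, n = 12). Colitic Tmem173iΔmye replicate 5 was the lowest colitic library for both genes (9.53 and 13.5 CPM), and r was not computed without it. Ccl2 came near Ccr1 (0.926) and Ccl11 (0.911) over all libraries, but within groups the values were 0.213 and -0.07. Within groups Ccl2 was closest to Ccl7 (0.736), its neighbour on chromosome 11, and Ccr2 to Ccl12 (0.841). With the fibroblast sum, r was 0.971 for Ccl2 and 0.919 for Ccl11 over all libraries, but 0.503 and -0.115 within groups.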

How the data were processed

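The authors deposited 1 table with raw counts per gene and FPKM for each of the 12 libraries (CASAVA 1.8, fastp, HISAT2 2.0.5, featureCounts 1.5.0-p3 and DESeq2 1.20.0 are named in the submitters' processing notes, with GRCm38/mm10), and strand use is not given in the sources used here. The deposited FPKM equal counts divided by gene length, library total and 1 constant per library. The deposited columns of the authors' own comparisons (fold changes, p-values and group means) were not used. Counts were tested with edgeR 4.0.16 (glmQLFit and glmQLFTest, TMM) in R 4.3.3, over the 24102 genes that reached 0.1 FPKM in 3 or more libraries, with Benjamini-Hochberg adjustment over all of them. The groups compared entered each fit, and all 12 libraries entered the interaction. The SE was derived from the log2 fold change and its F statistic. The tests were also run on simulated data, and no outcome of that check is given here. Within 3 groups 1 library had Xist reads and the others none or few, so these came from different mice. No label says so for the rest, and p-values measure the spread between these libraries. Alternatives were other filters, scalings, thresholds, DESeq2 1.42.0, limma 3.58.1 on log2(FPKM + 0.1) or log2(FPKM + 1), a replicate block, and libraries left out. The list counts without replicate 5 and the sum without Plac8 were added after seeing the data. The 10 genes and the marker lists were chosen with earlier results of these data known. All 10 genes were named, with defining markers and, per list, up to 5 genes called between colitic genotypes or for the interaction. Values named outside this rule (Ccl22, Ccr3, Il5ra, Il33 and Chil3, the epithelial genes under DSS, the median without single libraries and the ratio of receptors) were chosen after they were seen. The floor of 3 counts covers counting error only.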

Additional observations from a re-analysis of the deposited data

Results flagged for a closer look

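The response of Ccl2 to DSS differed between the genotypes by a test of the difference itself, with -2.27 on the log2 scale (SE 0.55, edgeR adjusted p = 0.0443, 3 libraries in each of 4 groups). All 3 colitic Tmem173iΔmye libraries (10.3, 9.27 and 8.5 CPM) lay below all 3 colitic Tmem173fl/fl libraries, and the untreated genotypes overlapped. The Ccl2 difference was called in 8 of 21 alternatives. These include the 12 fits that left out a library, of which 2 had the call. It was not called under the replicate block (edgeR adjusted p = 0.0521), with limma on log2(FPKM + 0.1) (adjusted p = 0.0941) or without the libraries with Xist reads (edgeR adjusted p = 0.206). Under DSS the summed levels of the fibroblast (2437 to 3561 against 8395 to 10553 CPM), neutrophil (199.8 to 316.1 against 423.5 to 705.6 CPM) and endothelial lists (159.2 to 310.1 against 414.2 to 567.6 CPM) moved with it. The full monocyte and macrophage list overlapped (1193 to 1558 against 1484 to 1743 CPM). Without Plac8, which went the other way, it did not (525.0 to 932.2 against 1185 to 1510 CPM), a choice made after the values were seen. The part of these lists in the result was not tested.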

How the results depend on the processing

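Over the alternatives, 490 of the log2 fold changes kept their direction and their side of the threshold, 42 lost the call, 7 gained it and 19 turned direction, all 19 of them for genes that were not called. This tally leaves out Ccl24, the untreated genotypes, and Ccl4, Ccl7 and Ccl8 in the interaction. Between untreated genotypes 6 of 9 genes were higher, but 9 without Tmem173fl/fl replicate 1 and 4 without Tmem173iΔmye replicate 2. For the interaction 1 of 9 was higher, but 3 under the replicate block. For DSS in Tmem173fl/fl mice, Ccl4 (-0.02) was 0.0286 with a filter of 1 FPKM, 0.12 with scaling by library totals, and -0.33 to 0.25 with single libraries left out. Ccl12 (0.06) was -0.00796 in 1 fit of all 12 libraries and -0.11 to 0.18 with single libraries left out, and Ccr2 (0.08) was -0.0330 to 0.24. For DSS in Tmem173iΔmye mice, Ccl3 (0.25) was -0.10 to 0.70 with single libraries left out, and Ccl8 (-0.08) was -0.28 to 0.26, with 0.47 under the replicate block and 0.47 without the libraries with Xist reads. Between colitic genotypes Ccl8 (-0.22) was 0.0250 under the replicate block and -0.41 to 0.0901 with single libraries left out. In this comparison the fit without the libraries with Xist reads is the one without colitic Tmem173iΔmye replicate 5 (0.0901). The cause of these changes of direction was not tested. The number of the 10 genes called for DSS in Tmem173iΔmye mice was 2, but 0 with limma on log2(FPKM + 0.1), 1 with limma on log2(FPKM + 1) and 0 to 3 with single libraries left out. Between colitic genotypes it was 1, but 3 by unadjusted p, 3 with DESeq2, 0 with both limma fits, 0 without the libraries with Xist reads and 0 to 1 with single libraries left out. For the interaction it was 1, but 3 by unadjusted p, 0 with limma on log2(FPKM + 0.1), 0 under the replicate block (Ccl2 -2.28, edgeR adjusted p = 0.0521), 0 without the libraries with Xist reads (Ccl2 -2.16, edgeR adjusted p = 0.206) and 0 to 2 with single libraries left out. Deviations from the group means had r from -0.19 to 0.21 between same-numbered libraries of the groups compared. Between differently numbered ones r ran from -0.47 to 0.34. With 3 libraries per group this cannot decide whether the numbers pair the samples. With the numbers as a block 5, 3, 0, 1 and 0 of the 10 genes were called in the 5 comparisons. Scaling by library totals moved the median log2 fold change of all genes from 0.03 to 0.16 for DSS in Tmem173fl/fl mice, from 0.02 to -0.09 between colitic genotypes and from 0.04 to -0.13 for the interaction. The share of Ccl24 among ligands differed by 0.454 points in CPM and 0.248 in FPKM between colitic genotypes. Ccl24 and untreated Ccr3, at or near the floor, are limited by depth.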
